A study of Oryza sativa Japonica Group and Oryza sativa Indica Group with 20 samples.

Results

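The embryos of a japonica and an indica rice cultivar, Tainung 67 (TNG67) and IR64, were compared by RNA sequencing, with 1 library a cultivar. These 2 libraries, labelled T0, are the starting material of a tissue culture series of 20 libraries, 10 of RNA and 10 of bisulfite-treated DNA, and they were chosen by their labels alone. The other 8 RNA libraries are calli, masses of dividing and largely unorganised cells, of the same cultivars, and serve here only as a reference for the embryos. Callus was induced (T1) and subcultured (T2) on medium containing the synthetic auxin 2,4-D at 2.5 mg/L. It then went to medium with an auxin, NAA at 0.02 mg/L, and a cytokinin, BAP at 2 mg/L, where it regenerated (TS) or failed to (TF). The labels give no age, treatment or number of embryos for T0, and do not say whether plants were pooled.

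Japonica and indica are the main subspecies of Asian cultivated rice, and their genomes differ in sequence, in gene content and in the copy number of many gene families. The mature rice embryo stores oil and protein, holds messenger RNAs laid down before the seed dried, and carries the scutellum, the tissue from which callus is usually raised. Indica cultivars are known as harder to regenerate from callus than japonica cultivars. The comparison therefore asks how far the cultivars already differ before culture begins.

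The deposited values are FPKM, fragment numbers scaled by the authors to gene length and to the mapped fragments of the library, after mapping to the japonica genome Nipponbare (build IRGSP-1.0). Loci carry identifiers without names. The reference table used here paired 1 of 54170 identifiers with a name, a cation-chloride cotransporter gene (LOC_Os01g19850, synonym KCC2), with 0.117 FPKM in the IR64 embryo and a listed 0 in the TNG67 embryo. Embryo markers could therefore not be matched, the tissue label was not checked against them, and each locus appears under its identifier, whose digits name the chromosome. LOC_Os12g13870 was left out: it stood at exactly 3000000 FPKM in the IR64 embryo, at 7026.3 to 44016.7 FPKM in the IR64 calli, and was listed at 0 in all 5 TNG67 libraries. Without it the values summed to 1063007 FPKM in the TNG67 embryo and 792962 in the IR64 embryo, against 595183 to 710922 in the calli. FPKM values keep no record of read numbers, so the depth of the libraries was unknown.

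The embryos expressed about equally many loci. At least 1 FPKM was reached by 18586 loci in TNG67 and 18585 in IR64, of which 16510 reached it in both, 2076 only in TNG67 and 2075 only in IR64. These 20661 loci were compared as the difference of log2(FPKM + 1), TNG67 minus IR64, a scale that understates differences of low loci. Most of them, 13139 (63.6%), were less than 2-fold apart. At least 4-fold apart, the cutoff stated in the labels, were 2489 loci (12% of those compared), 1403 higher in TNG67 (6.79%) and 1086 higher in IR64 (5.26%). At 16-fold or more 266 were higher in TNG67 and 117 in IR64. With 1 library a cultivar these differences have no replicate check and carry no p-value, and nothing in the files tells a cultivar difference from one between these samples. The median difference was 0.16 on the log2 scale, so the TNG67 library as a whole read slightly higher, and the counts are to be read relative to that shift. It was 0.10 after median-ratio scaling, with 1353 and 1128 loci, and 0.02 after quantile normalization, with 1159 and 1021. The unscaled shift was not even but grew with the embryo mean. Its median was -0.03 below 5 FPKM, 0.31 from 20 to 100, 0.53 from 100 to 1000 and 1.26 at 1000 FPKM or more.

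**Figure D1:**
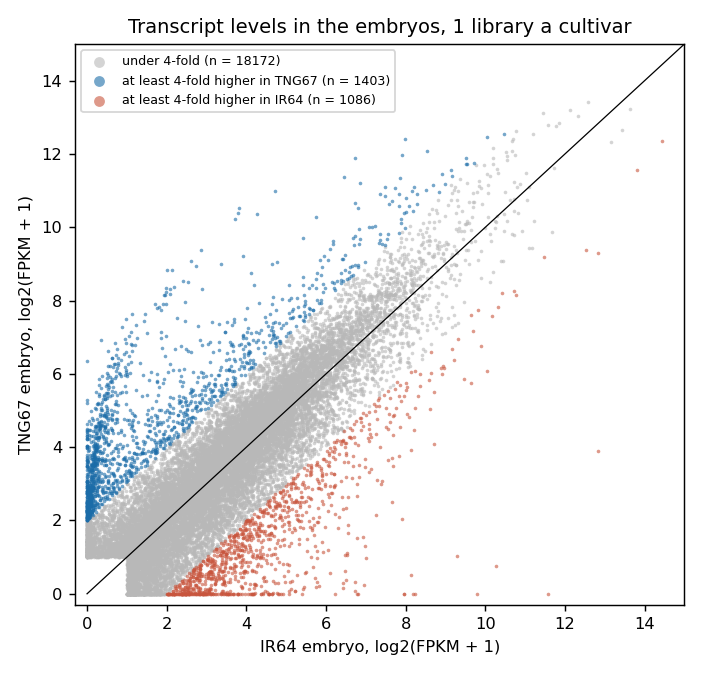
Level of each of the 20661 loci compared, as log2(FPKM + 1), in the IR64 embryo (x axis) and the TNG67 embryo (y axis), with 1 point a locus and the line of equal level. The 1403 blue points lie at least 4-fold toward TNG67 and the 1086 red points at least 4-fold toward IR64, and the cloud at high levels leans above the line.

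The most abundant transcripts were partly shared. Of the 100 most abundant loci of each embryo, 54 were in both lists. LOC_Os03g46770 on chromosome 3 led the TNG67 embryo with 10992.4 FPKM and stood at 6129 in IR64. LOC_Os01g15270 on chromosome 1 was next in TNG67, at 9666.9 FPKM, and stood at 12715.1 in IR64. Both were also abundant in every callus, at 8708.4 FPKM or more. LOC_Os08g03410 on chromosome 8 led the IR64 embryo with 22354.5 FPKM, against 5240.4 in TNG67, a log2 difference of -2.09. LOC_Os03g46100 on chromosome 3 followed with 14337.6 FPKM against 3048.1, a log2 difference of -2.23. The IR64 leaders were far lower in callus: LOC_Os08g03410 was at 0.755 FPKM or less in the TNG67 calli and 15.4 to 62.1 in those of IR64, and LOC_Os03g46100 at 203.8 to 453.2 and 16.4 to 137.2.

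Abundant loci, graded by the mean of the same 2 embryo values, were more often higher in TNG67. Of the 122 loci with an embryo mean of at least 1000 FPKM, 30 (24.6%) were at least 4-fold higher in TNG67 and 9 (7.38%) in IR64. From 100 to 1000 FPKM the shares were 10.6% and 4.96% of 1370 loci, and below 5 FPKM they were 5.58% and 4.49% of 7365. At least 1000 FPKM was reached by 148 loci in the TNG67 embryo and 78 in the IR64 embryo, against 32 to 49 in the calli. After quantile normalization, which gives every library the same distribution of values, 5 of the abundant loci were 4-fold higher in TNG67 and 10 in IR64. The lean toward TNG67 at high levels therefore cannot be told apart from the overall distribution of values in that library.

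Transcripts largely confined to the embryo leaned the same way, but were picked on the embryo values that are compared. A locus could enter through 1 high embryo alone, so their shares only describe the set and lend the lean no weight. They were taken, by a rule set after the data were examined, as loci with an embryo mean of at least 100 FPKM and less than 1/10 of that mean in each of the 8 calli. There were 71, with a median of 502.7 FPKM in the TNG67 embryo and 204 in the IR64 embryo. At least 4-fold higher in TNG67 were 20 (28.2%) and in IR64 10 (14.1%), against 10.9% and 4.72% of the 1421 other loci of that level. LOC_Os11g38220 on chromosome 11 differed most among the 20, at 281.4 FPKM in TNG67 and 2.88 in IR64. LOC_Os05g35400 on chromosome 5 came next, at 248.4 and 4.54 FPKM. In the opposite direction, and among loci above 0 in both embryos, LOC_Os04g34370 on chromosome 4 reached 1226.9 FPKM in IR64 and 0.7 in TNG67. It stood on 2 rows of the deposited table, which were summed: 1 row held 1226.8 FPKM in IR64 and a listed 0 in TNG67, the other 0.0981 and 0.7. With loci on several rows left out, 20 were higher in TNG67 and 7 in IR64. The 71 loci made up 6.5% of the summed FPKM of the TNG67 embryo and 10.3% of that of IR64, so the smaller number of IR64-higher loci held the larger values. After quantile normalization 3 were 4-fold higher in TNG67 and 9 in IR64.

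The largest differences toward TNG67 were found in loci measured in both embryos. LOC_Os09g23894 on chromosome 9 stood at 453.6 FPKM in the TNG67 embryo and 3.03 in the IR64 embryo, a log2 difference of 6.82. It kept that difference in culture, at 151.8 to 321.1 FPKM in the TNG67 calli and 0.564 to 1.28 in the IR64 calli. LOC_Os04g09390 on chromosome 4 stood at 1483.4 and 13 FPKM in the embryos, a log2 difference of 6.73. Its level fell off in culture, to 1.38 FPKM in TNG67 T1 and 45.7 to 93.8 in the later TNG67 calli, and IR64 calli had 0.255 FPKM or less.

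Toward IR64 the largest differences belonged to loci listed at 0 in TNG67, for which no fold is given. LOC_Os04g34400 on chromosome 4 was at 3059.5 FPKM and LOC_Os07g28970 on chromosome 7 at 882.7 FPKM in the IR64 embryo, and both were listed at 0 in the other 9 RNA libraries. Each of them had 2 rows in the deposited table, of which 1 was at 0 in every library. LOC_Os12g13870, at 3000000 FPKM in this library, also had 2 rows, but was not confined to it, with 7026.3 to 44016.7 FPKM in the IR64 calli. High values confined to 1 library may be failed estimates, which was not tested. Loci on several rows made up 3.92% of the loci compared, 8.29% of the 1086 loci higher in IR64 and 9 of the 20 that were at least 64-fold higher there, against 7.41% of the 1403 higher in TNG67 and 1 of 34. What part the doubled rows have in these values was not tested. With such loci left out, LOC_Os08g35305 on chromosome 8 came first, at 249.5 FPKM in the IR64 embryo and 74.7 to 110.9 in its calli. In TNG67 it was listed at 0 in the embryo and T1 and at 0.138 to 20.3 FPKM in the other calli. LOC_Os12g31690 on chromosome 12 came next, at 247.2 FPKM in the IR64 embryo, 12.2 to 31.7 in the IR64 calli and a listed 0 in all 5 TNG67 libraries.

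**Figure D2:**
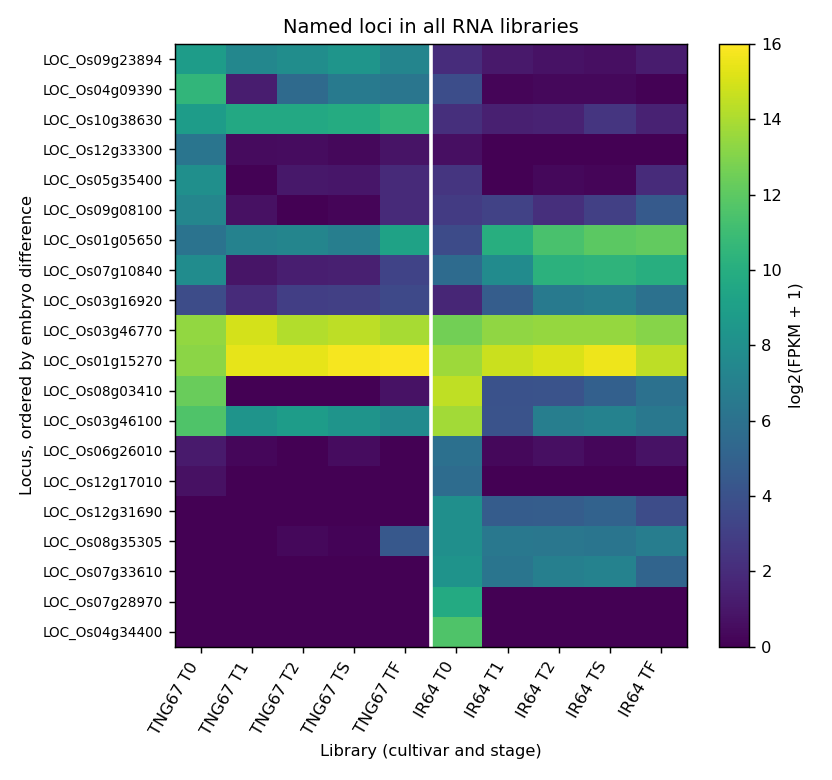
Levels of the named loci as log2(FPKM + 1), shown by colour, in the 10 RNA libraries (columns, TNG67 left of the white line and IR64 right of it), with 1 library a column and loci ordered by the embryo difference. Loci such as LOC_Os09g23894 are bright in all TNG67 libraries, while LOC_Os04g34400 is bright only in the IR64 embryo, at 3059.5 FPKM.

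Loci listed at 0 in an embryo were a minority of those 4-fold apart, but more frequent among them than among all loci compared. On the FPKM + 1 scale a locus at 0 needs only a low level in the other embryo to be 4-fold apart. The measure itself thus favours such loci, and their higher frequency is not read as a finding. Above 0 in both embryos were 3119 of the 3265 loci compared on chromosomes 10 to 12 and 16813 of the 17396 on chromosomes 1 to 9. The IR64 embryo was listed at 0 for 133 of the 1403 TNG67-higher loci, and 75 of these were at 0 in all 5 IR64 libraries. The TNG67 embryo was listed at 0 for 156 of the 1086 IR64-higher loci, 48 of them in all 5 TNG67 libraries. A listed 0 can be a failed estimate. Reads of both cultivars were aligned to a japonica genome with at most 2 mismatches and only unique alignments kept, so a transcript level and the ease of mapping reads of a cultivar or of a near-identical gene copy cannot be told apart.

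The embryo differences were then set against the cultivar differences in callus, which share no library with them. Among the 1403 loci higher in the TNG67 embryo, 40.4 to 45.8% were at least 4-fold higher in TNG67 at each of the 4 callus stages as well, and 26.8 to 35.2% were under 2-fold apart. Of all 20661 loci compared in the embryos, 68.9 to 78.5% were under 2-fold apart at these stages. Among the 1086 higher in the IR64 embryo, 22.1 to 28% were at least 4-fold the same way and 40.6 to 46.9% under 2-fold. The reverse difference of at least 4-fold was held by 5.56% or less of the first and 7.27% or less of the second. As background, 6.1, 6.34, 7.24 and 3.97% of all loci compared were at least 4-fold higher in TNG67 at T1, T2, TS and TF, and 5.03, 6.74, 7.34 and 3.79% in IR64. The carry-over into callus was thus larger for TNG67-higher loci, with a median callus difference of 1.48 to 1.78 (log2) against -0.49 to -1.02 for IR64-higher loci.

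**Figure D3:**
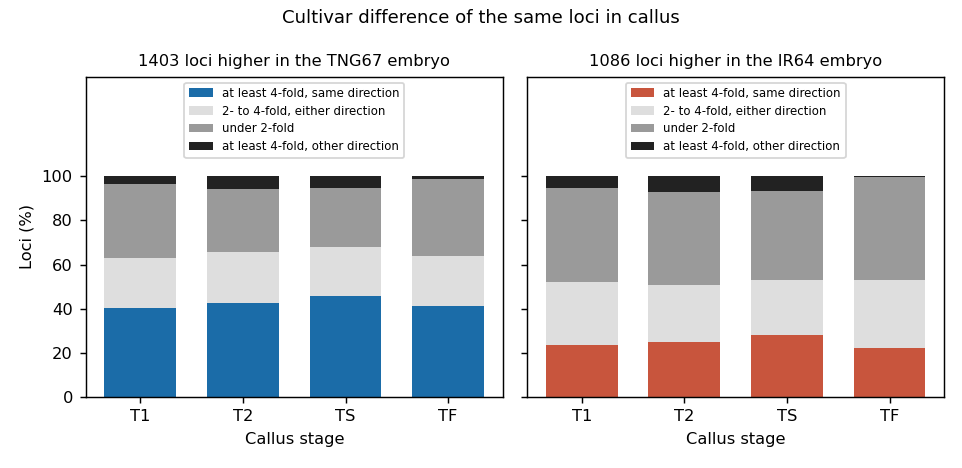
Share of the loci at least 4-fold apart in the embryos (left, 1403 higher in TNG67; right, 1086 higher in IR64) by their cultivar difference at each callus stage, 1 library a cultivar and stage. The coloured part, the same direction at 4-fold, is 40.4 to 45.8% on the left and 22.1 to 28% on the right, and the black part, the reverse direction, is smallest at TF.

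Judged by correlation, the failed callus resembled the embryo most of the callus stages in how the cultivars differed. Its 4-fold shares as such were not the highest, but fewer loci were 4-fold apart at TF. Across the 22912 loci that reached 1 FPKM in 2 or more of the 10 libraries, the difference at T0 correlated (Pearson) at 0.54 with that at TF, and at 0.37 to 0.40 with those at T1, T2 and TS. The cultivars themselves correlated at 0.83 in the embryo, 0.82 at TF and 0.70 to 0.78 at the other stages, and 7.76% of loci were at least 4-fold apart at TF against 11.1 to 14.6% at the other callus stages. These are correlations across loci, which are not independent replicates and share library and gene length, and they carry no p-value. At TF 41.3% of TNG67-higher and 22.1% of IR64-higher embryo loci were 4-fold the same way, against 45.8 and 28% at TS. Of all loci compared at each stage, 3.97 and 3.79% were 4-fold apart these ways at TF, against 7.24 and 7.34% at TS. As multiples of this background the TF shares were thus larger than those at TS. The shares under 2-fold were highest at TF, at 35.2 and 46.9%, and the reversed shares lowest, at 1.07 and 0.368%.

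Only a part of the embryo differences was held throughout. At least 4-fold the same way in all 4 calli were 453 (32.3%) of the TNG67-higher loci and 125 (11.5%) of the IR64-higher loci. Of all 20661 loci compared, 534 were that far toward TNG67 in all 4 calli and 207 (1%) toward IR64. The 453 had a median of 19.2 FPKM in the TNG67 embryo and 0.241 in that of IR64. LOC_Os10g38630 on chromosome 10 was among those with the largest embryo difference, at 459.2 FPKM in the TNG67 embryo and 797.1 to 1441.2 in the TNG67 calli, against 3.4 FPKM in the IR64 embryo and 1.7 to 4.64 in the IR64 calli. For IR64, LOC_Os07g33610 on chromosome 7 was at 301.8 FPKM in the embryo and 35 to 134.6 in the calli, with all 5 TNG67 libraries listed at 0; it too was on 2 rows. Without the failed calli the numbers rose to 505 and 199.

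Other loci were apart in the embryos and within 2-fold of each other in every callus, 223 (15.9%) of those higher in TNG67 and 192 (17.7%) of those higher in IR64. These shares lay well below that of all loci compared, of which 11451 (55.4%) were within 2-fold in every callus. Many were hardly transcribed in culture, with under 1 FPKM in all 8 calli for 72 of the 223 and 50 of the 192, while 114 and 117 stood at 1 FPKM or more in all 8. Values under 1 FPKM cannot be 2-fold apart once 1 is added to each, so these 72 and 50 loci fell in the group by the measure. For them the calli do not show whether the cultivar difference was gone. LOC_Os12g33300, LOC_Os06g26010 and LOC_Os12g17010, named next, are of this kind. LOC_Os12g33300 on chromosome 12 was at 72.2 FPKM in the TNG67 embryo, 0.582 in the IR64 embryo and 0.791 or less in the calli. LOC_Os05g35400 was at 248.4 and 4.54 FPKM in the embryos and 2.97 or less in the calli. LOC_Os06g26010 on chromosome 6 was at 59.2 FPKM in the IR64 embryo, 1.19 in the TNG67 embryo and 0.729 or less in the calli. LOC_Os12g17010 on chromosome 12 was at 50.3 FPKM in the IR64 embryo, 0.646 in the TNG67 embryo and a listed 0 in all calli. The last pair was named with loci on several rows left out, since LOC_Os04g34400 and LOC_Os07g28970 headed the group otherwise.

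A reversed difference at 4-fold in all 4 calli was found for 4 loci, 0.285% of the 1403 higher in the TNG67 embryo. These were higher in the IR64 calli, and 0 of the 1086 IR64-higher loci were reversed. Among all 20661 loci compared, 207 (1%) were at least 4-fold toward IR64 in every callus and 534 (2.59%) toward TNG67. Reversal in all 4 calli was thus rarer than these background shares in both directions, but single stages other than TF lay nearer to background. At T1, T2 and TS 5.43, 7.27 and 6.63% of IR64-higher loci were reversed. Of all loci, 6.1, 6.34 and 7.24% were 4-fold higher in TNG67 there. For TNG67-higher loci the reversed shares were 3.56, 5.56 and 5.42%, against 5.03, 6.74 and 7.34% of all loci higher in IR64. At TF they were 1.07% (TNG67-higher) and 0.368% (IR64-higher), against 3.79 and 3.97%. LOC_Os07g10840 on chromosome 7 was at 217.4 FPKM in the TNG67 embryo and 47.3 in the IR64 embryo, but at 0.882 to 8.4 in the TNG67 calli and 210.8 to 1384.4 in the IR64 calli. LOC_Os09g08100 on chromosome 9 was at 158.7 and 5.91 FPKM in the embryos, a listed 0 to 2.81 in the TNG67 calli and 3.45 to 22.1 in the IR64 calli. LOC_Os01g05650 on chromosome 1 was at 67.2 and 11.8 FPKM in the embryos, 114.4 to 605.9 in the TNG67 calli and 1065.6 to 4580.1 in the IR64 calli. LOC_Os03g16920 on chromosome 3 was at 12 and 2.24 FPKM in the embryos, 2.98 to 10.8 in the TNG67 calli and 25.5 to 116.2 in the IR64 calli.

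Whether a cultivar difference in the embryo departed from that in callus was tested with limma on the 22912 loci, as the interaction of cultivar and embryo with stage as a block. The test has 3 residual degrees of freedom, which come from how the cultivar difference varied over the callus stages, and it assumes that the single embryo libraries vary likewise. It called 0 loci at an adjusted p of 0.05 (0.0% called), with a lowest adjusted p of 0.056, while the unadjusted p was under 0.05 for 6145 loci, against 1145.6 by chance; no other tool was run. LOC_Os07g10840, LOC_Os09g08100, LOC_Os03g16920, LOC_Os05g35400 and LOC_Os06g26010 had a limma adjusted p of 0.056 and LOC_Os01g05650 of 0.064. LOC_Os12g33300 and LOC_Os12g17010 reached 1 FPKM in a single library and did not enter. The count was not stable: it was 4033 without the TNG67 TF library and 4044 without the IR64 TF library. Some other settings, given in the closing section, changed it as well. With stage as a block, leaving out either TF library takes the other out of the comparison too, so both counts come from the same check. No locus is therefore called particular to the embryo here.

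The chromosomes contributed unequally to the TNG67-higher loci. On chromosomes 10, 11 and 12 these were 10.5, 12.5 and 10.1% of the loci compared, and on chromosomes 1 to 9 they were 4.84 to 7.91%. The IR64-higher loci did not follow this, with 4.16 to 5.06% on chromosomes 10 to 12 and 4.59 to 5.99% on the others. Grouped after the values were seen, chromosomes 10 to 12 held 359 TNG67-higher loci among 3265 (11%) and the others 1044 among 17396 (6%). The gap was also present among loci above 0 in both embryos (10.6 and 5.59%), at an embryo mean of at least 20 FPKM (13.2 and 6.89%) and after quantile normalization (9.13 and 4.65%). In callus the same chromosomes had 8.75, 8.49, 9.65 and 5.92% TNG67-higher loci at T1, T2, TS and TF, against 5.6, 5.92, 6.78 and 3.6% on the others. IR64-higher loci at these stages were 5.31, 7.42, 7.92 and 4.44% on chromosomes 10 to 12, against 4.97, 6.6, 7.22 and 3.67% on the others. In callus they too were thus somewhat more frequent on chromosomes 10 to 12 at each stage. Chromosome 10 stood apart from 11 and 12 in callus. Its IR64-higher share was the highest of the 12 chromosomes at every callus stage, at 7.78, 9.42, 10.3 and 5.82%, and exceeded its TNG67-higher share of 6.97, 9.1 and 5.38% at T2, TS and TF. At T2 that TNG67-higher share lay below those of chromosomes 7 (7.08%) and 8 (8.09%).

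**Figure D4:**
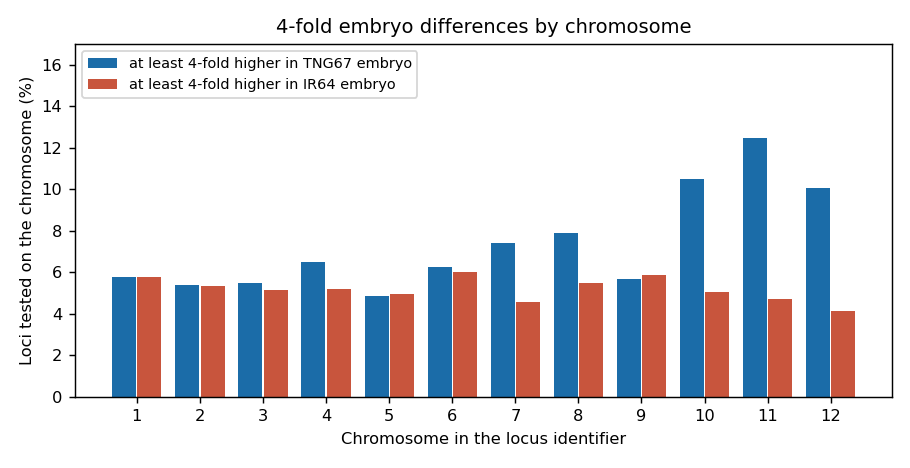
Share of the loci compared on each chromosome that were at least 4-fold higher in the TNG67 embryo (blue) or the IR64 embryo (red), 1 library a cultivar. The blue bars of chromosomes 10, 11 and 12 stand at 10.5, 12.5 and 10.1%, above all others, while the red bars lie between 4.16 and 5.99% throughout.

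Loci higher in TNG67 also tended to follow each other in identifier order, which runs along the chromosome. After a TNG67-higher locus the next locus compared was TNG67-higher in 270 of 1400 cases (19.3%), against 6.79% of all loci. For IR64-higher loci it was 101 of 1086 (9.3%), against 5.26%. On chromosomes 10 to 12 the TNG67 share was 25.1%, against 11% of all loci there, and on the others 17.3% against 6%, so its rise there went with a higher background. For IR64-higher loci the share was 5.3% against 4.63% on chromosomes 10 to 12 and 9.95% against 5.38% on the others. Runs of at least 5 TNG67-higher loci numbered 6, and the longest had 7 loci, while the longest IR64-higher run had 4. The longest runs, singled out after their values were seen, differed in kind.

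The run from LOC_Os11g47480 to LOC_Os11g47560 on chromosome 11 held some of the most abundant embryo transcripts. Its 7 loci were at 12 to 5474.1 FPKM in the TNG67 embryo, with a median of 2617.7, and at 0.0517 to 372.1 in the IR64 embryo, with a median of 230.7. The callus medians were 50.2 to 265.2 FPKM (TNG67) and 44 to 105.5 FPKM (IR64), and 1 to 3 of the 7 loci were still 4-fold higher in TNG67. At T1, T2 and TS 3 of the 7 loci were higher in IR64, and at TF 1 was. LOC_Os11g47560 stood at 500.7 to 768.9 FPKM in IR64 against 27.5 to 56.2 in TNG67 at T1, T2 and TS. LOC_Os11g47500 stood at 468.8 to 772.8 FPKM against 131.8 to 331.2 at the same stages. LOC_Os11g47550 stood at 318.4 to 838.8 FPKM against 73.5 to 397.2 over all 4 callus stages. The 7 embryo differences were 2.35 to 3.56 (log2) after quantile normalization, all above 4-fold.

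The run from LOC_Os01g35580 to LOC_Os01g35930 on chromosome 1 was low in IR64 at every stage. Its 7 loci were at 10.7 to 79.6 FPKM in the TNG67 embryo and a listed 0 to 1.16 in the IR64 embryo, and no IR64 callus exceeded 1.03 FPKM in any of them. In TNG67 callus the medians were 23.5 to 33.3 FPKM, and 4 to 6 of the 7 loci were 4-fold apart at each stage. The longest IR64-higher run, from LOC_Os06g25770 to LOC_Os06g26010 on chromosome 6, had 4 loci at 4.93 to 59.2 FPKM in the IR64 embryo and a listed 0 to 2.56 in the TNG67 embryo. Its medians in IR64 callus were 2.77 to 4.63 FPKM. How sequence differences from the reference or near-identical neighbouring copies bear on these runs was not tested.

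**Figure D5:**
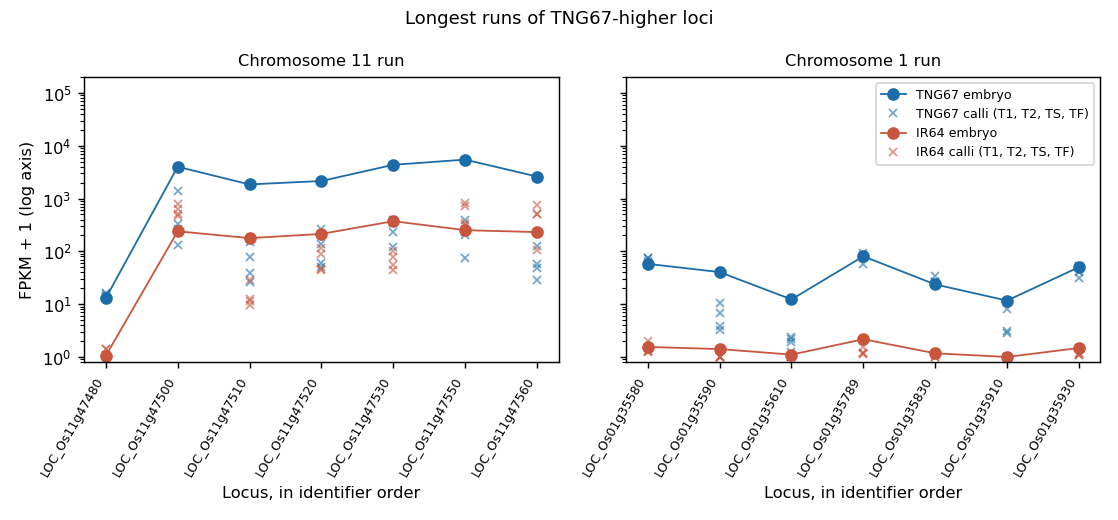
Levels (FPKM + 1, log axis) of the 7 loci in each of the longest runs of TNG67-higher loci, in identifier order, with circles and lines for the embryos and crosses for the 4 callus libraries of each cultivar. On chromosome 11 the TNG67 embryo stands above all calli for 6 of the 7 loci, and on chromosome 1 the IR64 values stay at 1.16 FPKM or less in all 5 libraries.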

How the data were processed

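Per the labels' protocols, each library started from 100 ng of RNA. Read quality was assessed in FastQC, and Bowtie aligned the reads to Nipponbare IRGSP-1.0, where only unique alignments with up to 2 mismatches stayed. The deposited FPKM values per locus came from TopHat, per the labels. Tool versions, gene models and strand: not given in the sources used here. The table had 55166 rows for 54170 loci, and rows of the 968 loci on several rows were summed. For 1723 loci with low values (up to 0.2 FPKM) in both embryos, 4.35% of the ratios fell in the fullest of many narrow bins. Whether that is a pile-up was not tested. No depth was derived from these ratios, so depth stayed unknown.

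Loci with at least 1 FPKM in either embryo were compared on log2(FPKM + 1) in Python 3.11.15 (pandas 2.3.3, numpy 2.4.6; plots in matplotlib 3.10.9). limma 3.58.1 in R 4.3.3 tested the interaction, with trended empirical Bayes and p-values adjusted by Benjamini-Hochberg at 0.05. On simulated data for that comparison (22912 loci), 50 loci were changed at each size, and it found 5 at 4-fold, 31 at 8-fold, 40 at 16-fold and 47 at 64-fold, with 10 false calls among 22712. The simulation gave the embryo libraries the same noise as the calli and left every other locus without an embryo change. How many such changes the test finds in the measured data was not tested.

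Stage paired the cultivars, since both were sampled at each labelled stage. Their deviations from the cultivar means correlated at 0.56 (T0), 0.46 (T1), 0.23 (T2), -0.01 (TS) and 0.27 (TF).

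Named loci have at least 10 FPKM in the higher embryo and the largest embryo differences, 2 each way for all loci and for those kept, absent or reversed in the calli, plus the 2 most abundant per embryo. No locus met the condition of passing limma, which was therefore dropped for the absent group, and all 4 reversed loci are named. The gene lists and markers fixed by product name could not be matched. Members, lists and rules were chosen with earlier results of these data known. Alternatives were other pseudocounts, filters, scalings, row handling and thresholds, and leaving out single libraries. The bisulfite libraries were not analysed here.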

Additional observations from a re-analysis of the deposited data

Results flagged for a closer look

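The 4 loci with reversed differences were picked out because the embryos differed one way and all 4 pairs of calli the other way. The log2 embryo difference, TNG67 minus IR64, was 4.53 for LOC_Os09g08100, 2.41 for LOC_Os01g05650, 2.18 for LOC_Os07g10840 and 2.00 for LOC_Os03g16920, and the callus differences were -2.15 to -2.81, -2.92 to -5.12, -6.77 to -9.03 and -2.4 to -3.82. limma's test of embryo against callus differences did not pass for any of them (adjusted p of 0.056, 0.064, 0.056 and 0.056). Over 18 fits the adjusted p ran from 0.0015 to 0.23, 0.024 to 0.23, 0.018 to 0.23 and 0.018 to 0.23. Without the failed calli 38 loci higher in the TNG67 embryo and 29 higher in the IR64 embryo were reversed in the remaining calli, so the number 4 rests on that stage.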

How the results depend on the processing

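With 1 library a cultivar, the counts of 1403 and 1086 loci have no replicate check, and became 4035 and 3487 at 2-fold, 2293 and 2119 at a pseudocount of 0.1, and 608 and 367 at 5. Loci kept, absent and reversed in the calli numbered 453, 223 and 4 for TNG67-higher and 125, 192 and 0 for IR64-higher loci. At a pseudocount of 0.1 the kept and reversed ones became 898 and 19, and 304 and 6. At a pseudocount of 5 the numbers were 128, 131 and 2, and 31 and 93 kept and absent. At 2-fold they were 946, 1462 and 77, and 475, 1157 and 39. Quantile normalization gave 2 and 1 reversed loci, a mean of at least 5 FPKM 147 absent TNG67-higher loci, and leaving out the failed calli 38 and 29 reversed and 199 kept IR64-higher loci. Quantile normalization turned the lean of abundant and of embryo-confined loci, as given with those results, and the embryo difference of LOC_Os01g15270, under 4-fold throughout, from -0.40 to 0.46 (log2). No named locus at least 4-fold apart in the embryos changed direction under another pseudocount or scaling, but some fell under 4-fold. After quantile normalization LOC_Os01g05650, LOC_Os07g10840 and LOC_Os03g16920 differed by 1.93, 1.73 and 1.64 (log2). Of the 4 reversed loci only LOC_Os09g08100 stayed above 4-fold there, at 3.83. LOC_Os03g16920 was also at 1.95 after median-ratio scaling and 1.23 at a pseudocount of 5.

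limma's 0 calls became 835 at a pseudocount of 5, 2785 without a filter, 2 at a mean of at least 5 FPKM and 954 without the replicate block, that is, without the pairing of the cultivars by stage. Leaving out single callus libraries gave 0 to 4044 calls, all 0 except 4033 without TNG67 TF and 4044 without IR64 TF. Leaving out either library of a stage takes the other out of the comparison as well, so the TF counts are not separate checks. An embryo library cannot be left out. The cause of these shifts was not tested. Alternatives on named gene lists were not run, since no list could be matched.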
